A study of Mus musculus with 12 samples.

Results

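The genes described here are 10 members of the NRF2 antioxidant system, measured by RNA-seq in mouse bone marrow-derived macrophages (BMDMs). They were the rows whose gene symbol equalled Nfe2l2, Keap1, Nqo1, Slc7a11, Gclc, Gclm, Txnrd1, Srxn1, Prdx1 or Sod2, so 10 of 23847 rows of the deposited tables. All 10 reached 1 FPKM in at least 1 sample and were tested together with the other expressed rows, 11191 in all. FPKM counts sequenced fragments after division by transcript length and by the total mapped in that sample, so it is a level per length that can be compared between genes.

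BMDMs are cultured macrophages derived from precursors of the bone marrow, here from wild-type mice aged 8 to 12 weeks on a C57BL/6 background. All groups were differentiated for 6 days with L929 cell supernatant, a source of the growth factor M-CSF, and no gene was deleted or introduced in any group. Control cells got neither agent. IL-4 cells got 20 ng/ml of IL-4 during 24 h, LPS cells got 100 ng/ml of lipopolysaccharide during 3 h, and IL-4+LPS cells got both, the cytokine first. IL-4 is a cytokine of type 2 immunity that polarizes macrophages to the alternative state, and LPS, from the outer membrane of bacteria, is sensed by Toll-like receptor 4. There were 3 samples per group, with numbers 1 to 3, and 12 samples over the 4 groups. For this RNA-seq the paper names individual animals, taken from separate experiments, as the source of its averaged fold changes. The labels do not tie a number to an animal or an experiment, so p-values measure the spread between these samples. Spread between animals and spread between experiments cannot be told apart in it.

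NRF2, encoded by Nfe2l2, is a transcription factor that drives genes for the removal of oxidants and electrophiles. In resting cells KEAP1 holds it in the cytoplasm and hands it to a ubiquitin ligase. When oxidants modify cysteines of KEAP1, newly made NRF2 escapes, enters the nucleus and binds antioxidant response elements together with small MAF proteins. Because this control acts on the protein, the mRNA level of Nfe2l2 is only 1 layer of its activity, and these data measure mRNA only. In macrophages the pathway is known for limiting oxidant damage during inflammation, while Sod2 and Slc7a11 are also known to respond to other factors, NF-kB and ATF4 among them.

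The sequence that NRF2 recognises is shown first, because it is what ties the target genes to the factor. The core of the antioxidant response element, TGACNNNGC on either strand, was searched in the 300 bases around each RefSeq gene start, 250 before and 50 after it, in build GRCm38.p6. Gclc had no entry in that table, and the other 9 genes had 11 windows, since Txnrd1 has 3. The core was in 5 of the 11 windows, against 12.4% of all 32851 windows. The 5 sites are listed with 10 flanking bases on each side, the core in capitals.
Nfe2l2, chr2:75704885-75704913, minus strand: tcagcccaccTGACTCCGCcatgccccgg
Gclm, chr3:122245413-122245441, minus strand: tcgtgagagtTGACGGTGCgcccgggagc
Txnrd1, chr10:82859104-82859132, minus strand: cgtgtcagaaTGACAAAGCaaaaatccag
Srxn1, chr2:152105542-152105570, minus strand: tgtctcactcTGACCTAGCtgcccactgc
Prdx1, chr4:116685456-116685484, minus strand: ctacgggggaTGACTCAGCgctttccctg

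Counted from the gene start, the cores began at -240 in Nfe2l2, -134 in Gclm, -92 in Txnrd1 and -133 in Prdx1, and at 28 past the start in Srxn1. Txnrd1 had the core in 1 of its windows only. The Prdx1 core overlaps a match to the AP-1 motif TGANTCA, which was in 7.81% of all windows and also in that of Srxn1. A consensus of the NF-kB site, spelled with 10 letters, was in 1.2% of all windows and in none of the 11. A match to TGATGNAA, the form bound by C/EBP-ATF pairs such as those of ATF4, was in 3.97% of all windows and, among the 9 genes, in Slc7a11, where 2 partly overlapping stretches held it, shown with the motif in capitals.
Slc7a11, chr3:50443662-50443689, minus strand: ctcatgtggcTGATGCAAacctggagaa
Slc7a11, chr3:50443643-50443670, plus strand: ggctgcatgaTGATGCAAattctccagg

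These matches are descriptions of the letters in the windows and say nothing about binding in these cells, and elements farther from the start lie outside the windows.

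Before the members are described, 3 facts of the series bear on their values. First, LPS shifted the whole table: the median log2 fold change over all rows tested was -0.44 for LPS minus control and -0.41 for IL-4+LPS minus IL-4, and between -0.05 and 0.04 for the IL-4 comparisons and the interaction. As deposited, 1887 rows were higher and 6462 lower after LPS, so 22.6% of calls were higher, against 40.2% after quantile normalization and 40.0% after median scaling. For LPS after IL-4 these shares were 20.6%, 37.1% and 39.3%. The difference from the shift is therefore given beside LPS changes. Second, replicate 1 stood apart in every group: the mean Pearson r of log2 values was 0.959 for pairs with replicate 1 and 0.977 for replicates 2 and 3. Replicate 1 also had the lowest relative depth of its group, 0.991 to 1.03 against 1.27 to 3.3 in the other samples, with control replicate 1 set to 1. The absolute depth is unknown. Last, all 8 macrophage markers were expressed, though their sum, led by Lyz2, was 20200 to 21400 FPKM in control, 16100 to 17300 with LPS, 8460 to 8670 with IL-4 and 7030 to 7510 with IL-4+LPS, and the summed levels of fibroblast, B cell and erythroid markers were at most 0.325 FPKM in any sample, those of dendritic cells at most 3.34 and of mast cells or basophils at most 2.18. A check list of 5 IL-4 response genes summed to 9800 to 13400 FPKM with IL-4 and 100 to 229 without, and one of 5 LPS response genes to 5720 to 9860 with LPS and 9.83 to 35.6 without. The list of neutrophil and granulocyte precursor markers, of which 6 of 7 were in the files, summed to 217 to 1040 FPKM with none at 0, S100a8 and S100a9 leading it, and its sum was lowest in replicate 1 of each group. The summed T or NK cell list, led by Cd4, was 9.62 to 11.7 FPKM in control, 6.16 to 6.76 in LPS and at most 0.839 in the IL-4-treated groups, with Cd4 the single gene of it to reach 1 FPKM. The part of any of these in the results was not tested. In bulk samples, fewer cells of a type and less RNA per cell cannot be told apart. Lyz2, which led the macrophage sum, was reported by the paper among the genes that IL-4 represses.

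**Figure D1:**
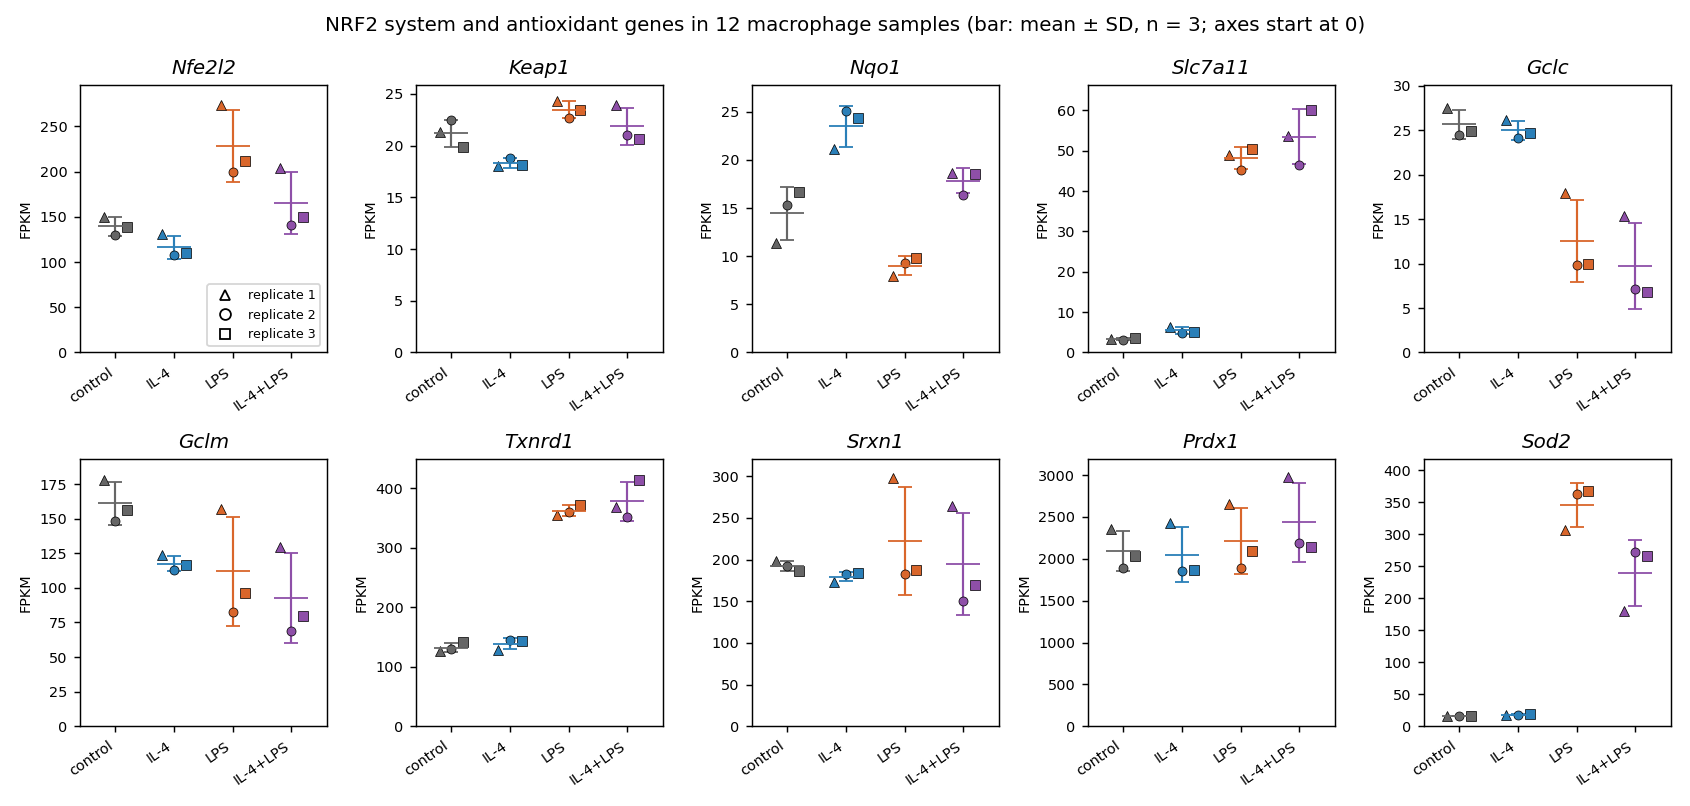
FPKM of the 10 genes in each of the 12 samples, 1 panel per gene with its own axis from 0; points are samples (triangle, circle and square for replicates 1, 2 and 3) and bars are the mean ± SD of 3 samples. Sod2, Slc7a11 and Txnrd1 lay far above control in all 6 LPS-treated samples, Nqo1 was highest in the 3 IL-4 samples, and replicate 1 lay above the other replicates for Gclc, Gclm and Srxn1 in both LPS-treated groups.

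LPS alone raised the mRNA of 4 of the 10 genes and lowered that of 2. Sod2, Slc7a11, Txnrd1 and Nfe2l2 rose, Nqo1 and Gclc fell, and Keap1, Gclm, Srxn1 and Prdx1 did not pass the threshold, an adjusted p of 0.05 by limma with Benjamini-Hochberg adjustment. Over all rows tested, 16.9% were called higher and 57.7% lower in this comparison. The median log2 fold change of the 10 genes was 0.16, and 7 of the 10 lay above the median of all rows. The 3 control and 3 LPS values did not overlap for 5 genes in the higher and 2 in the lower direction, against 17.9% and 58.7% of all rows. When LPS was added after IL-4, 5 genes rose and 2 fell, against 15.0% and 57.9% of rows. There Keap1 joined the 4 genes that rose, and Gclc and Nqo1 fell again. With replicates 2 and 3 only, the counts were 4 higher and 3 lower for LPS minus control and 5 higher and 4 lower for LPS after IL-4. These LPS comparisons share no samples.

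**Figure D2:**
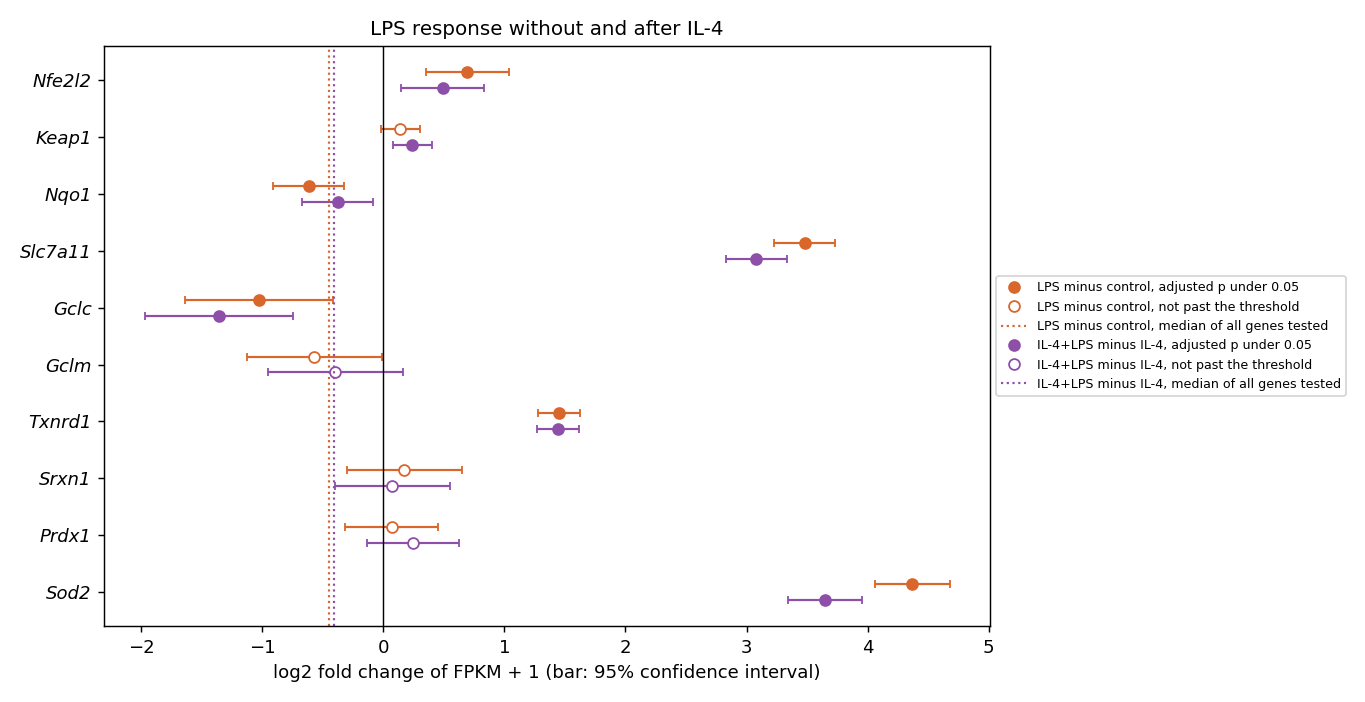
Log2 fold change of FPKM + 1 for each gene, LPS minus control (orange) and IL-4+LPS minus IL-4 (purple); bars are 95% confidence intervals from limma, filled points passed an adjusted p of 0.05, and dotted lines mark the medians of all rows tested, -0.44 and -0.41. Sod2, Slc7a11 and Txnrd1 lie far to the right in both, Gclc lies left of both dotted lines, and the points of Nqo1 lie near them.

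The factor and its inhibitor come first. Nfe2l2 (chr2:75675519-75704641, minus strand, mm10, protein-coding like the other members) was at 150.2, 129.8 and 138 FPKM in the control samples. It was at 131, 108 and 110.5 FPKM in the IL-4 samples, 273, 199.5 and 212 in the LPS samples, and 204.5, 141 and 150.0 in the IL-4+LPS samples. All LPS values lay above all control values, and replicate 1 was the highest of every group. The level thus went from 139.5 ± 10.3 FPKM (SD, n = 3) in control to 228 ± 39.5 with LPS, a log2 fold change of 0.70 with a standard error of 0.16 (limma adjusted p = 0.00198), or 1.14 above the shift of all rows. The fold change was 0.55 after quantile normalization (adjusted p = 0.0188) and 1.06 after median scaling (adjusted p = 9.93e-05). After IL-4, LPS raised Nfe2l2 from 116 ± 12.7 to 165 ± 34.3 FPKM (log2 fold change 0.49, adjusted p = 0.0154). That call was lost after quantile normalization (0.39, adjusted p = 0.0832), without IL-4 replicate 2 (0.44, adjusted p = 0.0535) and without IL-4+LPS replicate 1 (0.33, adjusted p = 0.0551).

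Under LPS, cells pretreated with IL-4 had a lower Nfe2l2 level than cells without IL-4. The log2 difference was -0.47 with a standard error of 0.16, a ratio of mean levels of 0.724 (limma adjusted p = 0.0426). The groups overlapped, since IL-4+LPS replicate 1 lay above LPS replicate 2. The call was lost when LPS replicate 1 (-0.33, adjusted p = 0.144), LPS replicate 3 (-0.52, adjusted p = 0.0661), IL-4+LPS replicate 2 (-0.37, adjusted p = 0.149) or IL-4+LPS replicate 3 (-0.41, adjusted p = 0.134) was left out. It was also lost without control or IL-4 replicates 2 or 3, where the adjusted p was 0.0549 to 0.0607. A fit of the LPS and IL-4+LPS groups alone lost it too (adjusted p = 0.126). With replicates 2 and 3 only it held (-0.50, adjusted p = 0.000508). The call also held after quantile normalization (-0.55, adjusted p = 0.0396) and median scaling (-0.45, adjusted p = 0.0402). The difference with IL-4 alone, 116 against 139.5 FPKM in control, did not pass (log2 difference -0.26, 95% interval -0.61 to 0.08, adjusted p = 0.216).

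Keap1 (chr9:21229730-21239332, minus strand), which encodes the cysteine-rich adaptor that presents NRF2 for degradation, had the narrowest range of the 10 genes. It was at 21.3, 22.5 and 19.9 FPKM in control, 18.0, 18.8 and 18.1 with IL-4, 24.3, 22.7 and 23.4 with LPS, and 24.0, 21.0 and 20.6 with IL-4+LPS. The IL-4 values lay below all others and the LPS values above all control values. LPS after IL-4 raised it from 18.3 ± 0.457 to 21.9 ± 1.83 FPKM (log2 fold change 0.24, SE 0.07, limma adjusted p = 0.0117), a call that replicates 2 and 3 alone just missed (0.16, adjusted p = 0.0502). LPS minus control was 0.14 (95% interval -0.02 to 0.30, adjusted p = 0.0979), which passed after quantile normalization (0.31, adjusted p = 0.00299) and median scaling (0.50, adjusted p = 7.72e-05). IL-4 minus control was -0.20 (95% interval -0.36 to -0.04), with an adjusted p of 0.0514. It passed in 6 alternatives, among them quantile normalization (limma adjusted p = 0.0352) and a fit of only the groups compared (adjusted p = 0.0498). Median scaling (adjusted p = 0.0629) and replicates 2 and 3 only (adjusted p = 0.051) did not let it pass. An antisense gene, Gm16754, covers 10.9% of the Keap1 exon bases, and strand use in the counting is not given in the sources used here.

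Nqo1, which encodes a quinone reductase often used as a readout of NRF2 activity, was the 1 gene that IL-4 raised both without and with LPS. Nqo1 (chr8:107388225-107403205, minus strand) was at 11.4, 15.3 and 16.7 FPKM in control and at 21.1, 25.0 and 24.3 with IL-4. It was at 7.95, 9.24 and 9.86 FPKM with LPS and at 18.7, 16.4 and 18.5 with IL-4+LPS. Every IL-4 value lay above every control value, and every LPS value below. The IL-4+LPS and control values overlapped. IL-4 raised the mean from 14.5 ± 2.74 to 23.5 ± 2.1 FPKM, a ratio of 1.62 (log2 fold change 0.68, SE 0.13, limma adjusted p = 0.00273). Under LPS the ratio of IL-4+LPS to LPS was 1.98 (log2 difference 0.91, SE 0.13, adjusted p = 0.000474).

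LPS went the other way for Nqo1. Its level after LPS was 9.02 ± 0.977 FPKM, a ratio to control of 0.624 (log2 fold change -0.61, SE 0.13, limma adjusted p = 0.00157), and after IL-4 the ratio was 0.759 (-0.38, adjusted p = 0.0248). These falls were close to the shift of all rows, at 0.17 below it for LPS minus control and 0.03 above it for LPS after IL-4. Quantile normalization and median scaling left neither call: -0.29 (adjusted p = 0.083) and -0.27 (adjusted p = 0.0755) for LPS minus control, and -0.19 (adjusted p = 0.242) and -0.03 (adjusted p = 0.857) after IL-4. The second call was also lost without IL-4 replicate 2 (-0.33, adjusted p = 0.0792), IL-4 replicate 3 (-0.35, adjusted p = 0.0707) or IL-4+LPS replicate 2 (-0.32, adjusted p = 0.0852). The rises with IL-4 passed under both scalings.

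Glutathione is made from cysteine, which enters the cell as cystine, and the first and limiting step of its synthesis is the work of glutamate-cysteine ligase. After LPS the importer rose and the catalytic subunit of the ligase fell, while the modifier subunit did not pass the test. Slc7a11 (chr3:50364936-50443613, minus strand) encodes the transport subunit of the cystine-glutamate exchanger. It had the lowest control level of the 10 genes, 3.43, 3.11 and 3.70 FPKM. The IL-4 samples were at 6.42, 4.86 and 5.06 FPKM, the LPS samples at 49.0, 45.2 and 50.4, and the IL-4+LPS samples at 53.7, 46.6 and 60.2. All IL-4 values lay above all control values, and all 6 LPS-treated samples far above both. LPS raised the mean 14.1-fold without IL-4 (log2 fold change 3.48, SE 0.11, limma adjusted p = 3.64e-09) and 9.82-fold after it (3.08, adjusted p = 7.79e-09). The log2 fold changes are on the scale of FPKM + 1 and so understate the ratio of a gene this low. IL-4 alone raised the mean 1.6-fold (0.54, adjusted p = 0.00409). Between LPS and IL-4+LPS the difference was 0.14 (95% interval -0.11 to 0.39, adjusted p = 0.394).

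Gclc (chr9:77754535-77794489, plus strand) encodes the catalytic subunit of the ligase. Its control values were 27.5, 24.5 and 25.0 FPKM and its IL-4 values 26.2, 24.1 and 24.6. With LPS it was at 17.9, 9.85 and 9.95 FPKM, and with IL-4+LPS at 15.3, 7.17 and 6.80. Every LPS-treated sample lay below every sample without LPS, and replicate 1 lay far above the other replicates in both LPS-treated groups. LPS lowered the mean from 25.7 ± 1.64 to 12.6 ± 4.62 FPKM (log2 fold change -1.02, SE 0.28, limma adjusted p = 0.00621), which was 0.58 below the shift of all rows. After IL-4 it fell from 25.0 ± 1.07 to 9.77 ± 4.82 FPKM (-1.36, adjusted p = 0.00118). Both calls held after quantile normalization and median scaling, the weaker being -0.68 with an adjusted p of 0.046 for LPS minus control. The difference of IL-4+LPS from LPS was -0.37 (95% interval -0.98 to 0.24, adjusted p = 0.353). It passed without IL-4+LPS replicate 1 (-0.71, adjusted p = 0.0247) and with replicates 2 and 3 only (-0.45, adjusted p = 0.000439).

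Gclm (chr3:122245557-122267215, plus strand) encodes the modifier subunit, which raises the affinity of the enzyme for glutamate. It was at 178, 148.5 and 156 FPKM in control, 124, 113 and 116 with IL-4, 157, 82.5 and 96.5 with LPS, and 129, 68.6 and 79.8 with IL-4+LPS. The IL-4 and IL-4+LPS values lay below all control values, and LPS replicate 1 lay within the control range. Neither agent alone gave a difference that passed in the fit of all samples by group means: LPS minus control was -0.57 (95% interval -1.13 to -0.01, limma adjusted p = 0.0602) and IL-4 minus control -0.45 (-1.004 to 0.11, adjusted p = 0.196). The combined treatment against control did pass, at 92.6 ± 32.4 against 161 ± 15.5 FPKM (log2 difference -0.84, adjusted p = 0.0108), but was -0.46 with an adjusted p of 0.115 after median scaling. LPS minus control lay 0.13 below the shift of all rows. After median scaling LPS minus control was -0.20 (adjusted p = 0.48), and after quantile normalization it passed (-0.72, adjusted p = 0.0347). With replicates 2 and 3 only it was -0.77 (adjusted p = 0.000305) and IL-4 minus control -0.41 (adjusted p = 0.0125). LPS minus control also passed without LPS replicate 1 (-0.84, adjusted p = 0.00644) or IL-4+LPS replicate 1 (-0.57, adjusted p = 0.0244). In fits of only the groups compared, IL-4 minus control passed (limma adjusted p = 0.00947) and LPS minus control did not (adjusted p = 0.0726). With replicate number as a block both passed, as given at the end. LPS after IL-4 gave -0.40 (-0.95 to 0.16, adjusted p = 0.178), which was 0.01 above the shift of all rows. This comparison gave -0.03 after median scaling (adjusted p = 0.921) and -0.66 without IL-4+LPS replicate 1 (adjusted p = 0.0224). Genes overlapping on either strand cover 4.71% of the Gclm exon bases.

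Peroxiredoxins remove peroxides with electrons passed from NADPH by thioredoxin reductase and thioredoxin, and sulfiredoxin repairs peroxiredoxins that were over-oxidised. Of these 3 genes, LPS raised the reductase. Txnrd1 (chr10:82833951-82897724, plus strand), the cytosolic thioredoxin reductase, was at 126, 129.5 and 141 FPKM in control and at 128, 144.5 and 143 with IL-4. It was at 356, 360.4 and 372.5 FPKM with LPS and at 368, 352 and 414 with IL-4+LPS. The 6 LPS-treated samples were at 352 FPKM or higher and the other 6 at 144.5 or lower. LPS raised the mean 2.75-fold without IL-4 (log2 fold change 1.45, SE 0.08, limma adjusted p = 8.19e-08) and 2.73-fold after it (1.44, adjusted p = 9.87e-08). The IL-4 differences were 0.07 (95% interval -0.11 to 0.24, adjusted p = 0.547) without LPS and 0.06 (-0.12 to 0.23, adjusted p = 0.637) with it.

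Srxn1 (chr2:152105524-152111376, plus strand), the sulfiredoxin gene, was at 198, 192 and 186 FPKM in control, 173, 182 and 183 with IL-4, 297.5, 183 and 187 with LPS, and 264, 150.5 and 169 with IL-4+LPS. Replicate 1 of both LPS-treated groups lay above every sample without LPS, while their replicates 2 and 3 were at 187 FPKM or lower. No comparison passed with all samples as deposited. LPS minus control was 0.17 (95% interval -0.30 to 0.65, limma adjusted p = 0.474), and 0.54 after median scaling (adjusted p = 0.0343). LPS after IL-4 was 0.07 (-0.40 to 0.55, adjusted p = 0.769). Its sign turned with replicates 2 and 3 only (-0.20, adjusted p = 0.0181) and, without a call, after quantile normalization (-0.10, adjusted p = 0.735). With replicates 2 and 3 only, IL-4+LPS was also lower than LPS (-0.21, adjusted p = 0.023) and than control (-0.24, adjusted p = 0.00667).

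Prdx1 (chr4:116685599-116700000, plus strand), a cytosolic 2-cysteine peroxiredoxin, had the highest level of the 10 genes in every sample. The control samples were at 2360, 1891 and 2039 FPKM, the IL-4 samples at 2430, 1850 and 1866, the LPS samples at 2657, 1890 and 2092, and the IL-4+LPS samples at 2981, 2184 and 2144. Replicate 1 was the highest of each group, and the ranges of all 4 groups overlapped. LPS minus control was 0.07 (95% interval -0.31 to 0.45, limma adjusted p = 0.73) and IL-4+LPS minus IL-4 0.25 (-0.14 to 0.63, adjusted p = 0.22). Relative to the shift of all rows these were 0.51 and 0.65 higher, and after median scaling they passed (0.44, adjusted p = 0.0409, and 0.61, adjusted p = 0.00994) while after quantile normalization they did not (0.04 and 0.08). Of the 50-base words of its transcript, 10.9% are also in Gm21399, Gm7204 or Gm15974, so reads shared with these copies make its level less certain.

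Sod2 (chr17:13007839-13018119, plus strand) encodes the mitochondrial manganese superoxide dismutase and had the largest LPS response of the 10 genes. It was at 15.8, 15.5 and 16.0 FPKM in control and at 17.6, 17.4 and 18.7 with IL-4. With LPS it was at 306, 363 and 368 FPKM, and with IL-4+LPS at 180.3, 272.5 and 266. All IL-4+LPS values lay below all LPS values, and replicate 1 was the lowest of both groups. LPS raised the mean 22.0-fold without IL-4 (log2 fold change 4.37, SE 0.14, limma adjusted p = 3.22e-09) and 13.4-fold after it (3.65, adjusted p = 9.48e-09). The level under LPS was lower with IL-4, at 239.5 ± 51.4 against 346 ± 34.3 FPKM (log2 difference -0.55, SE 0.14, adjusted p = 0.0128). That call held in each fit with 1 sample left out, where the value was largest without IL-4+LPS replicate 2 (-0.65) and smallest without IL-4+LPS replicate 1 (-0.36, adjusted p = 0.0094), but not in a fit of the LPS and IL-4+LPS groups alone (adjusted p = 0.0827). IL-4 minus control was 0.17 (95% interval -0.14 to 0.48, adjusted p = 0.369), though no IL-4 value lay within the control range.

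The interaction compares the size of the LPS response with and without IL-4 pretreatment. Of the 10 genes, 1 passed, Sod2, with a smaller response after IL-4, against 4.63% of all rows called lower and 4.58% called higher. Its log2 difference of responses was -0.72 (SE 0.20, 95% interval -1.16 to -0.28, limma adjusted p = 0.0466). The adjusted p ran from 0.00128 to 0.114 over the alternatives, and leaving out any control or IL-4 sample, LPS replicate 2 or LPS replicate 3 took the adjusted p above the threshold, with values of -0.74 to -0.67. For Slc7a11 the interaction was -0.40 (95% interval -0.76 to -0.04, adjusted p = 0.158), and after quantile normalization it passed (-0.63, adjusted p = 0.0299). For Nqo1 it was 0.24 (-0.18 to 0.65, adjusted p = 0.502), and for Nfe2l2 -0.21 (-0.69 to 0.28, adjusted p = 0.634). The narrowest intervals were those of Keap1, at 0.10 (-0.13 to 0.33), and Txnrd1, at -0.01 (-0.25 to 0.23).

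Counted over the 10 genes, IL-4 alone raised 2, Nqo1 and Slc7a11, and lowered none by this test, against 16.0% of rows higher and 21.0% lower. At an unadjusted p under 0.05 there were 3, with Keap1 added. The values did not overlap for 3 genes in each direction, against 22.1% and 29.5% of rows, the higher ones being Nqo1, Slc7a11 and Sod2 and the lower ones Keap1, Gclm and Srxn1. With replicates 2 and 3 only, 3 genes were higher, Sod2 being added (0.18, adjusted p = 0.0153), and 2 lower, Gclm and Nfe2l2 (-0.30, adjusted p = 0.00443). Under LPS, IL-4 raised Nqo1 and lowered Sod2 and Nfe2l2, so 1 higher and 2 lower against 15.0% and 15.8% of rows, and 1 higher and 4 lower with replicates 2 and 3 only. The groups did not overlap for 1 gene in each direction, Nqo1 and Sod2, against 20.4% and 21.8% of rows. These shares of 10 genes are small counts, and for IL-4 they lie near the shares of all rows.

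**Figure D3:**
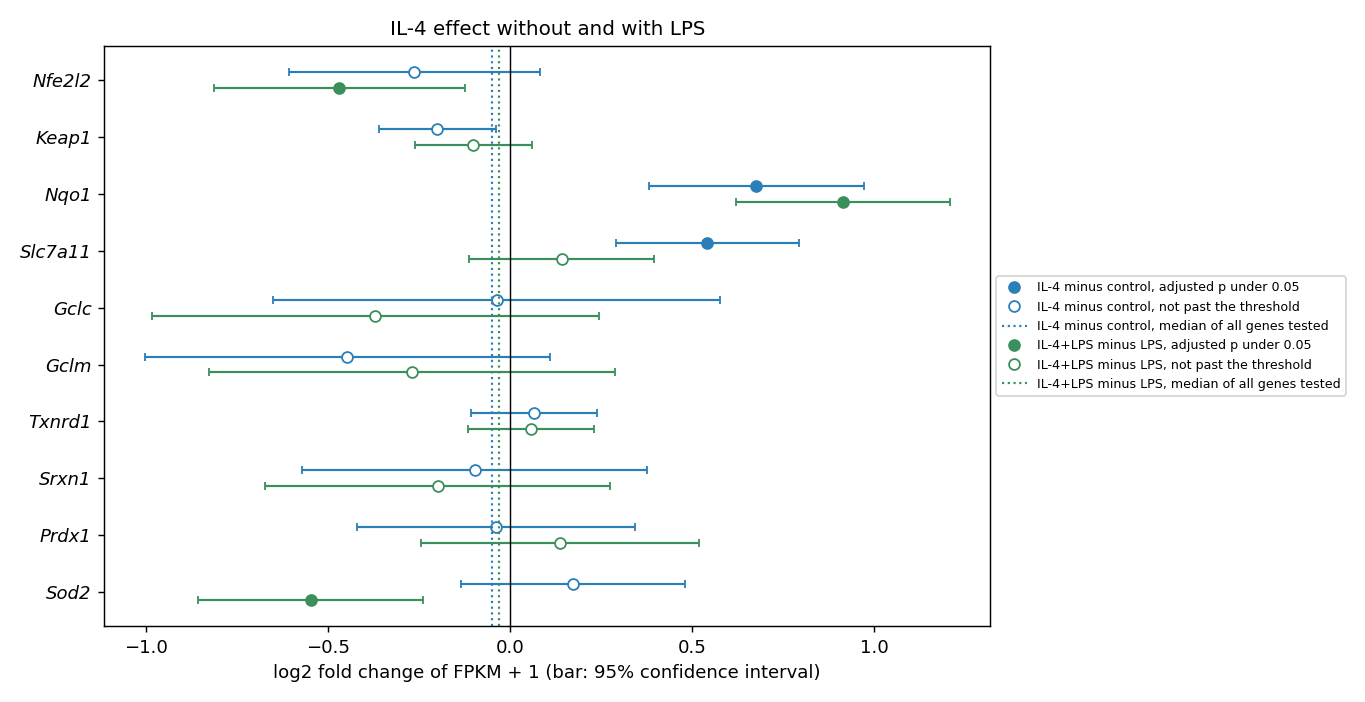
Log2 fold change of FPKM + 1 for each gene, IL-4 minus control (blue) and IL-4+LPS minus LPS (green), with 95% confidence intervals from limma; filled points passed an adjusted p of 0.05 and dotted lines mark the medians of all rows, -0.05 and -0.03. Both Nqo1 points lie to the right of 0 with intervals clear of it, Slc7a11 passed without LPS, and Sod2 and Nfe2l2 lie left of 0 under LPS.

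Against control, the combined treatment raised 3 genes, Sod2, Slc7a11 and Txnrd1, and lowered 2, Gclc and Gclm (17.9% and 56.4% of rows). LPS alone against IL-4 alone raised 5 and lowered 2 (18.5% and 55.2% of rows). Ordered by group mean, the genes fell into several patterns. Sod2 ran control, IL-4, IL-4+LPS, LPS, with called steps between IL-4 and IL-4+LPS and between IL-4+LPS and LPS. Slc7a11 ran control, IL-4, LPS, IL-4+LPS, with called steps up to LPS, while Txnrd1 had the same order with 1 called step, between IL-4 and LPS. Nqo1 ran LPS, control, IL-4+LPS, IL-4, with called steps at either end and none between control and IL-4+LPS. Scaling turned these Nqo1 calls over, since neither end step passed after quantile normalization or median scaling. The step between control and IL-4+LPS then passed (log2 difference 0.56, limma adjusted p = 0.00385, and 0.66, adjusted p = 0.000736). Gclc ran IL-4+LPS, LPS, IL-4, control with 1 step, between LPS and IL-4, and Nfe2l2 ran IL-4, control, IL-4+LPS, LPS with 1 step, the last. For Keap1, Gclm, Srxn1 and Prdx1 no neighbouring levels differed by the test.

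Within groups, replicate 1 moved several of these genes together. Nfe2l2, Gclc, Gclm and Prdx1 were highest in replicate 1 in 4 of 4 groups, a pattern that 17.0% of all rows had. With Keap1 and Srxn1, 6 genes were highest in replicate 1 in both LPS-treated groups, against 35.2% of rows. The ratio of replicate 1 to the mean of replicates 2 and 3 was 1.11 in control, 1.07 with IL-4, 1.81 with LPS and 2.19 with IL-4+LPS for Gclc. For Gclm the ratio was 1.17, 1.08, 1.75 and 1.74, and for Srxn1 1.05, 0.946, 1.61 and 1.65. Sod2 went the other way, with 1.0, 0.976, 0.838 and 0.67. The median log2 difference of replicate 1 over all rows was between -0.04 and 0.06 in the 4 groups. Replicate 1 was also the shallowest sample of each group, and its granulocyte marker sum was the lowest, at 325 against 862 and 614 FPKM in control, 217 against 406 and 280 with IL-4, 514 against 1040 and 853 with LPS, and 430 against 851 and 596 with IL-4+LPS. Mpo and Elane, which define granulocyte precursors, were at 1.52 to 8.29 FPKM in all samples. The part of depth and of these cells in the replicate 1 levels was not tested. Nor was that of separate experiments, since the labels do not mark which samples shared an experiment.

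**Figure D4:**
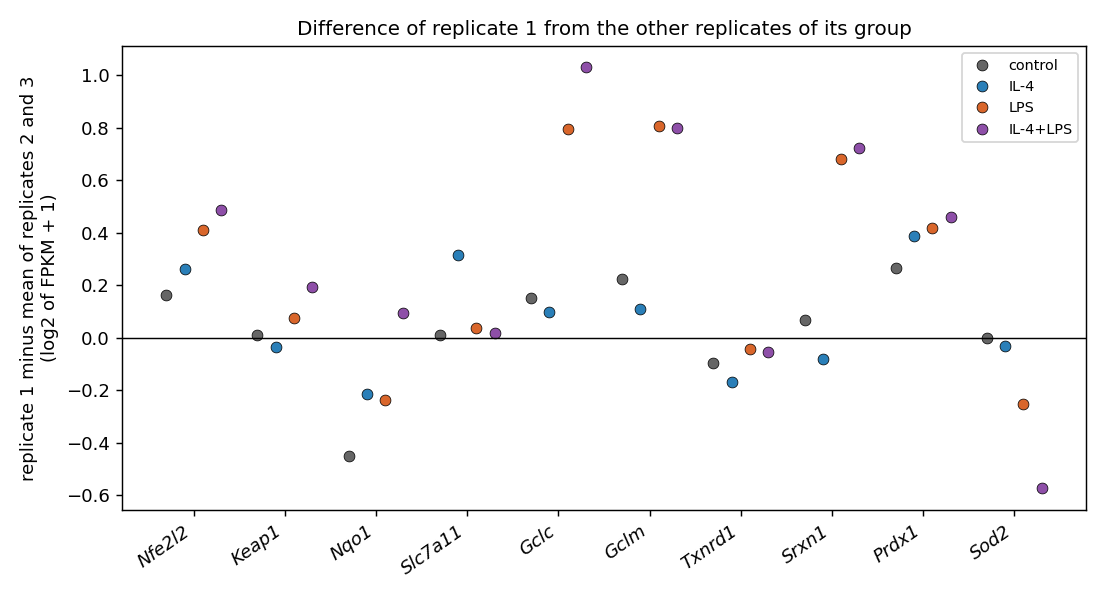
Difference of replicate 1 from the mean of replicates 2 and 3 of its group on the log2 scale of FPKM + 1, 1 point per gene and group. For Gclc, Gclm and Srxn1 the LPS and IL-4+LPS points lie between 0.68 and 1.03, far above their control and IL-4 points, while for Sod2 the LPS-treated points lie below 0, at -0.25 and -0.58.

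The other genes of the pathway were taken from 4 lists with 78 genes in all, every one of which was in the files. The first holds 12 regulators of NRF2, and after LPS 7 rose and 4 fell, with a median log2 fold change of 0.44 against -0.44 over all rows. Maff, a small MAF protein that pairs with NRF2, rose most, from 0.781 to 1.48 FPKM in the control samples to 16.2 to 19.8 with LPS (log2 fold change 3.10, limma adjusted p = 4.45e-07). Bach1, a repressor that competes with NRF2 for its elements, fell most, from 27.3 ± 2.37 to 14.1 ± 0.291 FPKM (-0.90, adjusted p = 3.44e-05). After quantile normalization and median scaling the count of genes that rose stayed 7, and those that fell were 2 and 3.

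In the other 3 lists, more genes fell than rose after LPS, as over all rows, of which 16.9% rose and 57.7% fell with a median of -0.44. Of 21 tested genes of the glutathione system 4 rose and 12 fell (median -0.52), of 17 of the thioredoxin, peroxiredoxin and dismutase system 2 rose and 15 fell (median -0.56), and of 22 of NADPH supply and other NRF2 targets 2 rose and 14 fell (median -0.51). After median scaling the counts were 5 and 7, 2 and 8, and 5 and 9, and after quantile normalization 5 and 10, 2 and 13, and 2 and 14. The list medians were then -0.24, -0.29 and -0.14 against -0.14 over all rows, and -0.14, -0.53 and -0.56 against -0.12. As the largest rise of each list in turn, Ggct, gamma-glutamylcyclotransferase, went from 1.27 to 7.39 FPKM (log2 fold change 1.88, limma adjusted p = 1.36e-07), Prdx5, a mitochondrial and peroxisomal peroxiredoxin, from 210.0 to 652 FPKM (1.63, adjusted p = 1.8e-08), and the metallothionein Mt2 from 26.2 to 756 FPKM (4.50, adjusted p = 7.39e-05). Mt2 varied widely among the LPS samples, from 223 to 1030 FPKM. The largest fall of each list was that of Sesn1, a sestrin of the thioredoxin list, from 113 ± 3.51 to 4.72 ± 4.47 FPKM (-4.59, adjusted p = 1.59e-05), Osgin1 of the NADPH list, from 24.8 ± 2.49 to 5.78 ± 3.06 FPKM (-2.01, adjusted p = 0.0003), and Gsto1, a glutathione transferase, from 80.5 ± 10.7 to 43.3 ± 7.4 FPKM (-0.89, adjusted p = 0.000277). Hmox1, heme oxygenase, a much used NRF2 target named here after its values were seen, had a difference of -0.47 (SE 0.35, adjusted p = 0.241).

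**Figure D5:**
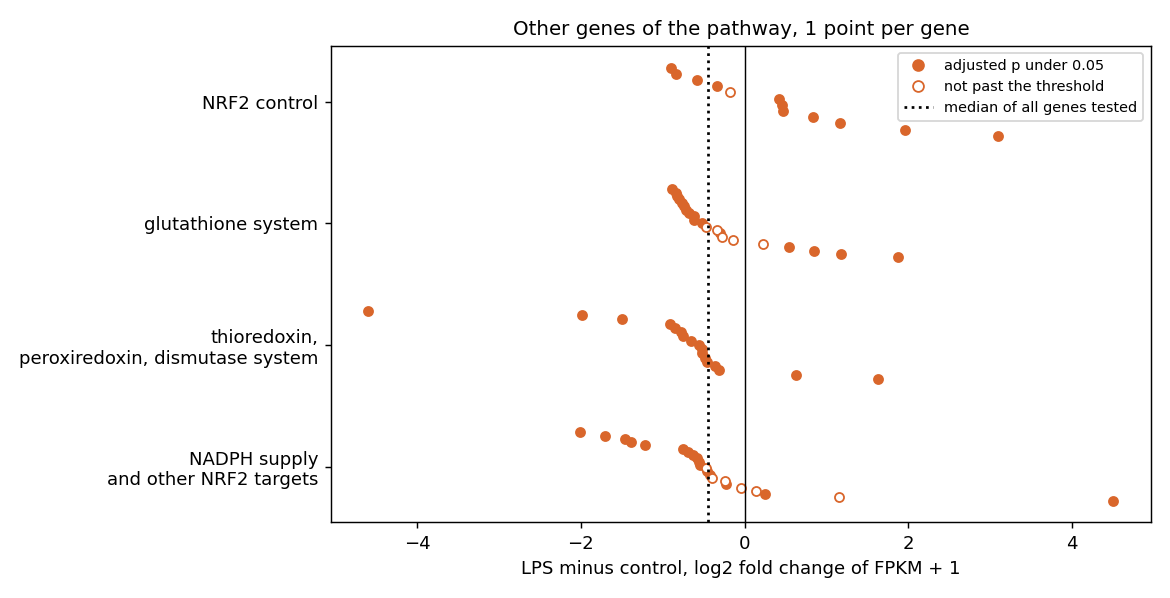
Log2 fold change of FPKM + 1, LPS minus control, of the tested genes of the 4 pathway lists, 1 point per gene, ordered by value within a list and offset vertically for display; filled points passed an adjusted p of 0.05 and the dotted line is the median of all rows, -0.44. Many genes lie near that line, and Mt2 at 4.50 and Sesn1 at -4.59 are the outermost points.

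IL-4 alone changed fewer of these genes, as it did over all rows, of which 16.0% rose and 21.0% fell. In the list of NRF2 regulators 1 rose and 3 fell, in the glutathione system 5 rose and 5 fell, in the thioredoxin, peroxiredoxin and dismutase system 1 rose and 5 fell, and in the list of NADPH supply and other targets 5 rose and 4 fell. The medians were -0.01, 0.13, -0.21 and -0.11, against -0.05 over all rows. Atf4, a stress-response factor that also drives Slc7a11, rose from 71.8 ± 2.22 to 118 ± 2.52 FPKM (log2 fold change 0.71, limma adjusted p = 4.98e-06), and Mafg fell by 0.57 (adjusted p = 0.00791). Gsto1 rose by 0.67 (adjusted p = 0.00527), and Gpx3, a secreted glutathione peroxidase at a low level, fell from 3.17 to 0.903 FPKM (adjusted p = 0.00131). Cat, catalase, fell from 610 to 347 FPKM (-0.82, adjusted p = 3.17e-05) while Prdx3, a mitochondrial peroxiredoxin, rose by 0.52 (adjusted p = 0.00583). Tkt, the pentose phosphate enzyme transketolase, rose from 138 to 229 FPKM (0.72, adjusted p = 2.42e-05), and Akr1b8, an aldo-keto reductase, fell from 164 to 71.5 FPKM (-1.18, adjusted p = 0.00167).

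Under LPS, IL-4 pretreatment raised 1 and lowered 2 of the regulators, raised 8 and lowered 5 genes of the glutathione system, raised 4 and lowered 3 of the thioredoxin group, and raised 5 and lowered 3 of the last list. Over all rows 15.0% were higher and 15.8% lower, with a median of -0.03, and the list medians were -0.08, 0.15, 0.06 and -0.02. Gsr, glutathione reductase, which regenerates glutathione with NADPH, was at 47.4 to 52.7 FPKM with IL-4+LPS and 107 to 110 with LPS (log2 difference -1.10, SE 0.07, limma adjusted p = 1.08e-06). Gsto1 was at 88.3 ± 8.05 against 43.3 ± 7.4 FPKM (1.02, adjusted p = 0.000474). Tkt and Cat kept the directions they had with IL-4 alone, at 0.82 (adjusted p = 1.03e-05) and -0.59 (adjusted p = 0.000323), as did Akr1b8 at -0.90 (adjusted p = 0.00862). Nfe2l1, a factor related to NRF2, was higher by 0.25 (adjusted p = 0.0171), Txnip, the thioredoxin-binding protein, by 0.78 (adjusted p = 0.0164), and Fbxw11, a beta-TrCP ubiquitin ligase adaptor that targets NRF2, was lower (-0.59, adjusted p = 0.00223). The interaction passed for 1 of 12 regulators, Atf4 (-0.64), 3 of 21 glutathione genes, Ggct (-0.75), Glrx (-0.71) and Gsr (-0.39), 1 of 17 of the thioredoxin group, Txnip (1.24), and 1 of 22 of the last list, Akr1a1 (0.32), against 4.58% of all rows higher and 4.63% lower. These 6 were named after their values were seen.

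The rows whose profile over the 12 samples was most like that of a member were found by the root mean square distance between log2 values of FPKM + 1, each centred on its own mean. For Nfe2l2 these were Atp2c1 at 0.082, Prrc2c at 0.11 and A830080D01Rik at 0.111, and for Keap1 Hspbap1 at 0.054, Kansl3 at 0.074 and Zfp407 at 0.084. Actr1b at 0.093, Pcyt2 at 0.096 and Slc25a5 at 0.112 were nearest to Nqo1. Sertad2 at 0.09, Katna1 at 0.122 and Mov10 at 0.127 were nearest to Txnrd1. No member was among the 3 nearest rows of another. The strongly induced pair had more distant neighbours, Nt5c3 at 0.215, Malt1 at 0.23 and Daxx at 0.263 for Slc7a11, and Foxp4 at 0.212, Tma16 at 0.256 and Src at 0.274 for Sod2. Those of Gclc included 1700066M21Rik at 0.169 and Nsmce4a at 0.17, and those of Gclm were Plekhm3 at 0.121, Tubgcp4 at 0.122 and Ngly1 at 0.136. Ergic2 was among the 3 nearest of both Srxn1, at 0.144 after B3gnt5 at 0.127 and Rufy3 at 0.139, and Prdx1, at 0.106 beside Naip2 at 0.102 and Rsbn1 at 0.106. The 12 samples share their treatments and replicate numbers, so likeness describes the profiles and no test was made of it.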

How the data were processed

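RNA-seq was available for 12 BMDM samples in 4 groups of 3, grouped by the labels. Per the labels, poly-A selected libraries were made from total RNA, and the authors deposited FPKM values, 1 table per sample with replicates kept apart, aligned to mm10. The submitters' processing notes name TopHat2 2.0.7 and Cufflinks 2.0.2, and the gene annotation is not given in the sources used here. An FPKM value is scaled within its sample, so strong induction of some genes lowers the values of the rest. No counts were among the files, so no counting interval could be formed and the number of fragments is unknown. Relative depth was read from the steps between low values. FPKM totals were 457583 to 495025.

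Tables were joined on symbol, locus and start site (23847 rows, 23361 symbols; each member has 1 row). Rows with at least 1 FPKM in at least 1 sample were kept. With limma 3.58.1 (R 4.3.3), log2(FPKM + 1) was fitted by group means over all samples, using eBayes with intensity trend and Benjamini-Hochberg adjustment over all 11191 rows within each of 7 contrasts, two-sided, at 0.05. On simulated data for LPS minus control (11191 genes, 200 changed by 1.5 on the log2 scale) 94.5% were recovered and 5.03% of calls were false. The simulated errors were independent, with no shared replicate structure and no shift of all rows, so these rates describe that setting only. The members, pathway lists and markers were chosen with earlier results of these data known. Named genes were all members, the largest called rise and fall of each pathway list in the comparisons of either agent with control and of IL-4+LPS with LPS, and the 3 most similar profiles per member, 1 of which is not reported here. Locations, overlaps and shared 50-base words were computed with GENCODE vM21 and promoters with RefSeq. Alternatives were a pseudocount of 0.1, no trend, no filter or a filter on 3 samples, median scaling, quantile normalization, only the compared groups, a 2-fold minimum, replicate number as a block, replicates 2 and 3 only, and each sample left out. Figures were drawn with matplotlib 3.10.9.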

Additional observations from a re-analysis of the deposited data

Results flagged for a closer look

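The LPS response of Sod2 differed between cells without and with IL-4 pretreatment by a test of the difference itself. The log2 response was 4.37 without IL-4 and 3.65 after it, an interaction of -0.72 (SE 0.20, limma adjusted p = 0.0466), and all 3 IL-4+LPS values lay below all 3 LPS values. No other of the 10 genes passed in this fit of all samples by group means. In other fits of the values as deposited, Slc7a11 passed with the replicate block (-0.40, limma adjusted p = 0.0466). Gclc passed with replicates 2 and 3 only (-0.43, adjusted p = 0.00558). The Sod2 call was lost in 13 of the alternatives, among them a pseudocount of 0.1, no filter, median scaling, no intensity trend and leaving out any control or IL-4 sample, and its adjusted p ran from 0.00128 to 0.114.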

How the results depend on the processing

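Over the alternatives, 1402 of 1540 values of single genes kept direction and side of the threshold, 48 came to pass it and 51 no longer passed it. Another 38 changed direction with no call in either fit, 29 of them by less than 1 standard error. No called value turned its sign. Srxn1 in IL-4+LPS minus IL-4, not called as reported, was called with the other sign with replicates 2 and 3 only (-0.195). The cause was not tested for any of these. Scaling changed the counts of the 10 genes most in LPS comparisons. Not every changed count is listed here. Median scaling gave 7 higher (4 as reported) and 1 lower (2) for LPS minus control, 1 lower (2) for IL-4+LPS minus IL-4, 7 higher (3) and 1 lower (2) for IL-4+LPS minus control, 1 lower (2) for LPS minus IL-4 and 0 lower (1) for the interaction. It also added Prdx1 to the genes higher for IL-4+LPS minus IL-4, and Prdx1 and Srxn1 to those higher for LPS minus IL-4. Quantile normalization gave 1 lower (0) for IL-4 minus control, 1 lower (2) for IL-4+LPS minus IL-4, 5 higher (3) for IL-4+LPS minus control and 2 lower (1) for the interaction. For LPS minus control it added Keap1 to the genes higher, and Gclm took the place of Nqo1 among the lower. For IL-4+LPS minus IL-4 it removed Nfe2l2 from the genes higher. With no expression filter there were 1 lower for IL-4 minus control, 1 lower for IL-4+LPS minus LPS and 0 for the interaction, and a pseudocount of 0.1 or no intensity trend left 0 for the interaction. With only the groups compared there were 2 lower for IL-4 minus control and 0 lower for IL-4+LPS minus LPS. Replicates 2 and 3 only gave 2 lower for IL-4 minus control, 4 for IL-4+LPS minus IL-4, 4 for IL-4+LPS minus LPS and 2 for the interaction. A 2-fold minimum left 1 lower for LPS minus control, 0 higher for IL-4 minus control, 3 higher and 1 lower for IL-4+LPS minus IL-4, 0 higher and 0 lower for IL-4+LPS minus LPS, 0 for the interaction, 1 lower for IL-4+LPS minus control, and 3 higher and 1 lower for LPS minus IL-4. With each sample left out, the genes called lower ran from 0 to 1 for IL-4 minus control, 1 to 3 for IL-4+LPS minus IL-4, 1 to 3 for IL-4+LPS minus LPS and 0 to 1 for the interaction.

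Whether replicate numbers pair the samples was checked from deviations of samples with the same number, whose correlations ran from 0.0024 to 0.386 with a mean of 0.124 against -0.06 for different numbers, and exceeded 0.1 in 11 of 18 pairs, with 7 of 12 samples closest to one of their own number. Samples of a number thus share some structure, but since not every pair exceeded 0.1 and the labels do not tie a number to an animal, the numbers were not taken to pair the samples. With the replicate block, 3 genes were lower for IL-4 minus control (0 without), 6 higher for IL-4+LPS minus control (3) and 2 lower for the interaction (1), where Slc7a11 passed (-0.40, adjusted p = 0.0466). Gclm passed for LPS minus control (adjusted p = 0.00743) and IL-4 minus control (adjusted p = 0.0392). Nfe2l2 passed for IL-4 minus control (-0.26, adjusted p = 0.0109) and kept its call for IL-4+LPS minus LPS (adjusted p = 0.000617). Prdx1 passed for IL-4+LPS minus IL-4 (0.25, adjusted p = 0.00234). Without counts, low values carry an error that cannot be given, and replicate 1 is the shallowest sample of each group.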
